A study of Mus musculus with 2 samples.

Results

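Autophagy is the process by which a cell wraps part of its own cytoplasm in a double membrane, the autophagosome, and delivers it to the lysosome for breakdown. A kinase complex starts the process, a lipid kinase marks the membrane, ubiquitin-like proteins of the LC3 and GABARAP family are attached to it, and receptors tie cargo to these proteins. Liver is rich in autophagy and is known to use it during fasting, when hepatocytes break down protein, glycogen, lipid droplets and mitochondria. The transcripts of 41 genes of this machinery were described, of 24054 genes in the deposited table. They were chosen by symbol from knowledge of the pathway, with earlier results of these data known, and all 41 were found. They cover 8 roles, from initiation of the autophagosome to the lysosome.

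The libraries came from liver of male C57BL/6 mice aged 8 to 12 weeks, either WT or Pgrmc1 KO (Pgrmc1 -/Y). The KO mice lack Pgrmc1, a heme-binding membrane protein, in the whole body, through a floxed allele deleted by Sox2-Cre. RNA of several mice of a genotype (2.5 μg per mouse) was combined before library preparation, so that each genotype is 1 library and the spread between mice was not measured. No difference below has a replicate check, and none was tested. Pgrmc1 (GRCm38 build, also called mm10, at 36598193 to 36606079 of chromosome X) was at 0.68 TPM in KO against 949 in WT, as the labels have it.

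TPM is the share of a gene among all transcripts, corrected for its length, so that levels of different genes can be compared. Changes are log2((KO TPM + 1)/(WT TPM + 1)). For each gene a 95% counting interval is also given, which is that of the ratio of the authors' size-factor-scaled means and rests on estimated reads. It covers counting error only, and PCR duplicates are not accounted for. The libraries held about 22086688 estimated reads in KO and 29710410 in WT. A gene is called higher or lower here by its fold alone. Hepatocyte markers were all found, 12 of 12, and added up to 101127 TPM in KO against 105291 in WT. Of these, 10 had a change below 0, against 53.8% of the 11623 genes whose mean reached 1 TPM. In bulk RNA, fewer cells of a type and less RNA per cell cannot be told apart.

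The autophagy transcripts were close to equal in the KO and WT livers. Of the 41 genes, 0 were higher by at least 1.4-fold, where 1.21% of the 11623 genes whose mean reached 1 TPM were. Likewise 0 were lower at 0.6-fold or less, against 0.301% of all genes. At 1.2-fold, 2 were higher (Tfeb and Atg101) and 1 was lower (Atg13), against 5.39% and 5.51% of all genes. These shares of 41 genes are near the background. Below 0 were 24 of the 41 and above it 17, against 53.8% and 45.8% of all genes. The median change of the 41 was -0.03, and that of all genes was -0.01. Changes ran from -0.28 for Atg13 to 0.28 for Tfeb, and 24 of the 41 lay within 0.1 of 0 (58.5%), as did 53.7% of all genes. In sum the 41 genes made 2627 TPM in KO against 2760 in WT, a log2 ratio of -0.07.

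**Figure D1:**
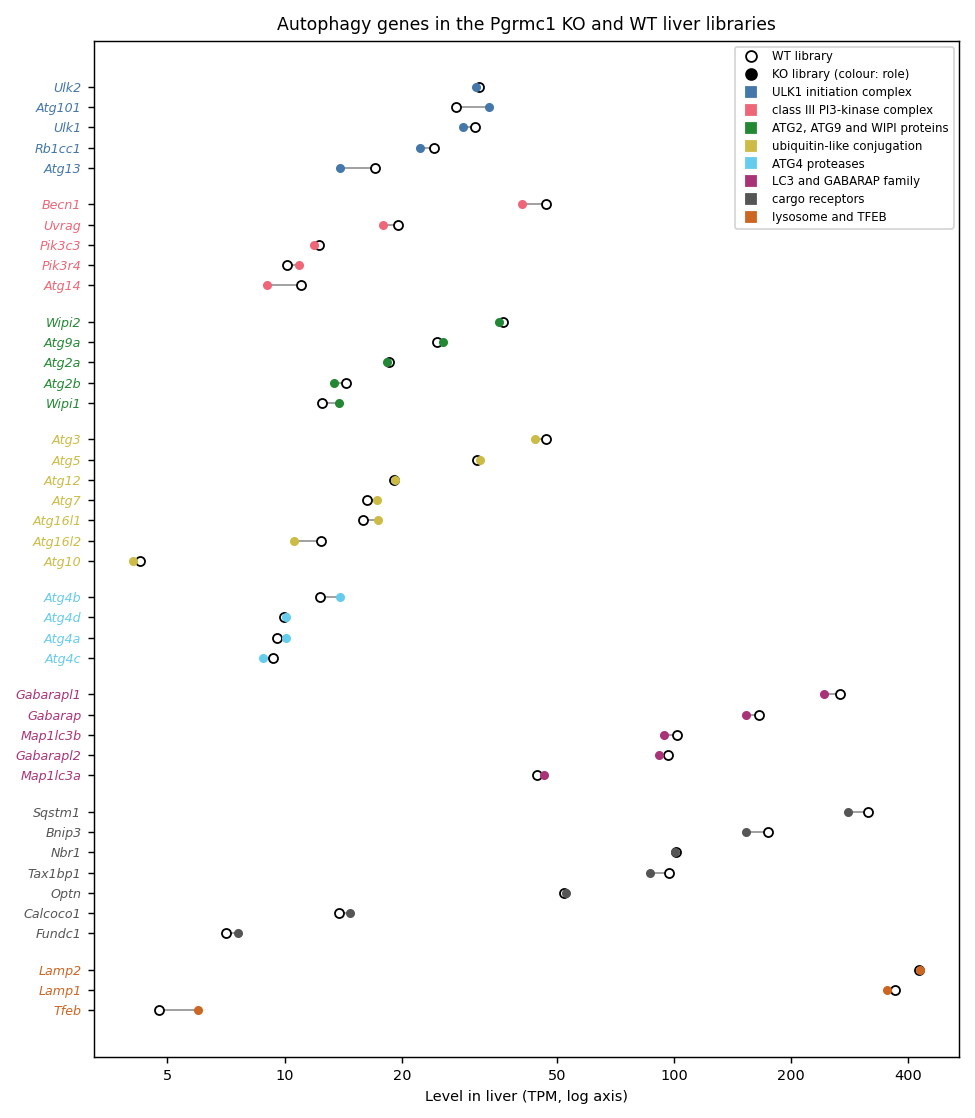
Level of each of the 41 genes in the WT library (open circles) and the KO library (filled circles), in TPM on a log axis, grouped and coloured by role. The pairs of circles lie close together across a range of levels from 4.17 TPM (Atg10) to 427 TPM (Lamp2).

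Levels differed far more between the genes than between the libraries. Lamp2 was the most abundant member at a mean of 427 TPM, followed by Lamp1 at 361 and Sqstm1 at 297 TPM. Atg10 was the least abundant at 4.17 TPM. The 11 most abundant members are all lysosomal membrane proteins, receptors or of the LC3 and GABARAP family, as the plot of levels by role shows. Of the same roles, Map1lc3a (45.35 TPM), Calcoco1 (14.3 TPM) and Fundc1 (7.35 TPM) lie lower. The kinases, lipid-transfer proteins and conjugating enzymes lie between 4.17 and 45.5 TPM.

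The ULK1 complex, which starts autophagosome formation when nutrients are low, held both a higher and a lower gene. Atg101 (chromosome 15, 101284301 to 101290947) was at 33.6 TPM in KO against 27.6 in WT, a change of 0.27 with an interval of 0.12 to 0.48. Atg13 (chromosome 2, 91674612 to 91710597) was at 13.9 TPM in KO against 17.1 in WT, a change of -0.28 with an interval of -0.43 to -0.15. The proteins of these genes bind each other within the complex, and their transcripts differed in opposite directions between the libraries. Ulk1, one of the kinases, was at 28.7 TPM in KO against 30.8 in WT, and its paralog Ulk2 at 31.0 and 31.7 TPM. Rb1cc1, the scaffold known as FIP200, was at 22.3 TPM in KO against 24.2 in WT. The changes of these 3 genes were -0.10 for Ulk1, -0.03 for Ulk2 and -0.12 for Rb1cc1, all within 1.2-fold. The intervals of Ulk1 (-0.17 to -0.0076) and Rb1cc1 (-0.19 to -0.03) lie below 0, and that of Ulk2 holds 0.

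The class III PI3-kinase complex makes the lipid PI3P on the growing membrane. Of its 5 genes, 4 had a change below 0, against 53.8% of all genes, and 0 passed 1.2-fold. Atg14 (chromosome 14, 47540893 to 47568434), the subunit that brings the kinase to the autophagosome, was at 9.04 TPM in KO against 10.99 in WT. Its change of -0.26, with an interval from -0.45 to -0.09, lies just inside 1.2-fold and passes it under 3 of the alternative settings. Becn1, the Beclin 1 subunit and the most abundant of the group, was at 40.8 TPM in KO against 46.9 in WT, a change of -0.20 with an interval of -0.30 to -0.08. Uvrag, which takes the place of Atg14 in the endosomal form of the complex, changed by -0.13 (17.9 TPM in KO, 19.6 in WT), and its interval of -0.25 to 0.01 holds 0. Pik3c3, the lipid kinase itself, was at 11.9 TPM in KO against 12.3 in WT. Pik3r4, its regulatory partner, was the 1 gene of the group that was higher, at 10.9 TPM in KO against 10.2 in WT. The median change of the group was -0.13, the lowest of the 8 roles.

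Proteins that supply lipid to the membrane or read PI3P had a median change of -0.01 over 5 genes. Wipi2, which binds PI3P and was the most abundant of them, was at 35.6 TPM in KO against 36.4 in WT. Wipi1, a close relative, was the least abundant and had the highest change, 0.13 (13.8 TPM in KO, 12.5 in WT), with an interval that holds 0. Atg2b, a lipid-transfer protein, had the lowest, -0.09 (13.4 and 14.3 TPM), and was the 1 gene of the group whose interval, -0.17 to -0.0039, did not hold 0. The other lipid-transfer protein, Atg2a, was at -0.01, a sign that turned on centring at the median gene, and the scramblase Atg9a at 0.05. Of the windows of 100 bases in Atg9a transcripts, 27.8% are also found in another gene model, Gm29253. That model is not listed among the 24054 genes, and its part in the value of Atg9a was not tested.

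The conjugation enzymes attach LC3 to lipid and Atg12 to Atg5, and their median change over 7 genes was 0.0079. Atg3, which hands LC3 to the lipid and was the most abundant, was at 44.0 TPM in KO against 47.0 in WT. Atg16l1, which targets the conjugating complex to the membrane, had the highest change, 0.12 (17.4 TPM in KO, 15.9 in WT), and its interval of -0.0039 to 0.28 holds 0. Its paralog Atg16l2 had the lowest, -0.21 (10.6 and 12.4 TPM), with an interval from -0.43 to -0.0046. The changes of the 2 paralogs had opposite signs, and only the interval of Atg16l2 did not hold 0. The changes of Atg5 (0.02), Atg12 (0.0079) and Atg7 (0.08) were smaller. Atg10 was at 4.09 TPM in KO against 4.25 in WT and rests on the fewest reads of all members, 82 in KO. Its interval of -0.47 to 0.38 does not exclude a difference of 1.2-fold either way.

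Atg4 proteases trim LC3 before conjugation and free it again afterwards. Atg4b, the most abundant of the 4, was at 13.9 TPM in KO against 12.3 in WT, a change of 0.16 with an interval of 0.02 to 0.35. Atg4c, the least abundant, had the lowest change, -0.07 (8.81 TPM in KO, 9.33 in WT), and the other 2 changed by 0.07 (Atg4a) and 0.01 (Atg4d). A share of 34.7% of the 100-base windows of Atg4a is also in the gene model Atg4a-ps, which is likewise not among the 24054 genes. The 4 transcripts summed to 42.8 TPM in KO against 41.2 in WT.

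Of the LC3 and GABARAP family, the proteins that coat the autophagosome, 4 of 5 transcripts had a change slightly below 0, against 53.8% of all genes. Gabarapl1 (chromosome 6, 129533192 to 129542331) was the most abundant at 243 TPM in KO against 267 in WT, a change of -0.14 with an interval of -0.17 to -0.07. Gabarap was at 153 TPM in KO against 166 in WT, and Map1lc3b, the LC3B gene, at 94.6 and 102 TPM. Both changed by -0.11, and neither interval holds 0. Gabarapl2 was at 91.7 TPM in KO against 96.4 in WT, a change of -0.07 with an interval from -0.17 to 0.06. Map1lc3a, the least abundant, was the 1 gene that was higher, at 46.3 TPM in KO against 44.4 in WT, and its interval of -0.08 to 0.24 holds 0. The family summed to 629 TPM in KO against 676 in WT, a log2 ratio of -0.10. Gabarapl1 made 38.7% of that sum in KO and 39.6% in WT, so the makeup of the family was nearly equal in the libraries. No 100-base window of Gabarapl1, Gabarap or Map1lc3a occurs in another gene, while 6.80% of those of Gabarapl2 and 2.87% of those of Map1lc3b occur in other gene models.

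Of the 7 cargo receptors, which bind what is to be degraded, 4 lay below 0 and 3 above, against 53.8% and 45.8% of all genes. Their changes ran from -0.19 to 0.09. Bnip3 (chromosome 7, 138890836 to 138909506), a receptor on mitochondria, was at 154 TPM in KO against 175 in WT, a change of -0.19 with an interval of -0.23 to -0.11. Sqstm1 (chromosome 11, 50200152 to 50210820), the ubiquitin-binding receptor p62, was at 279.8 TPM in KO against 315 in WT, a change of -0.17 with an interval of -0.20 to -0.11. Tax1bp1, which also binds ubiquitinated cargo, was at 87.0 TPM in KO against 97.0 in WT, a change of -0.16 with an interval of -0.20 to -0.09. These 3 are the receptors whose intervals lie below 0, and all 3 lie within 1.2-fold. Nbr1, a partner of p62, was at 101 TPM in both libraries, a change of -0.0028 whose sign turned on centring and with the authors' means. Optn, optineurin, was at 52.9 TPM in KO against 52.1 in WT. Calcoco1 and the mitochondrial receptor Fundc1 were higher by 0.09 each, at 14.8 TPM in KO against 13.8 in WT for Calcoco1 and at 7.61 and 7.09 TPM for Fundc1. Both of these intervals hold 0. Other gene models share 6.90% of the 100-base windows of Bnip3.

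Tfeb (chromosome 17, 47737037 to 47792416) encodes a transcription factor that is known to switch on lysosomal and autophagy genes and is controlled largely by its entry into the nucleus. Its transcript was at 6.00 TPM in KO against 4.77 in WT, a change of 0.28 with an interval of 0.04 to 0.64. It is a low transcript, with 179 estimated reads in KO and 191 in WT. Lamp1 and Lamp2 encode the main glycoproteins of the lysosomal membrane. Lamp1 was at 353 TPM in KO against 369 in WT, a change of -0.07, and Lamp2 at 429 TPM in KO against 425 in WT, a change of 0.01. Their intervals, -0.09 to -0.02 and 0.01 to 0.07, do not hold 0, as the reads of these genes are many. Lamp2 (38399647 to 38456460) lies 1.79 Mb from Pgrmc1 on chromosome X, and its level was nearly equal in the library with the deletion.

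**Figure D2:**
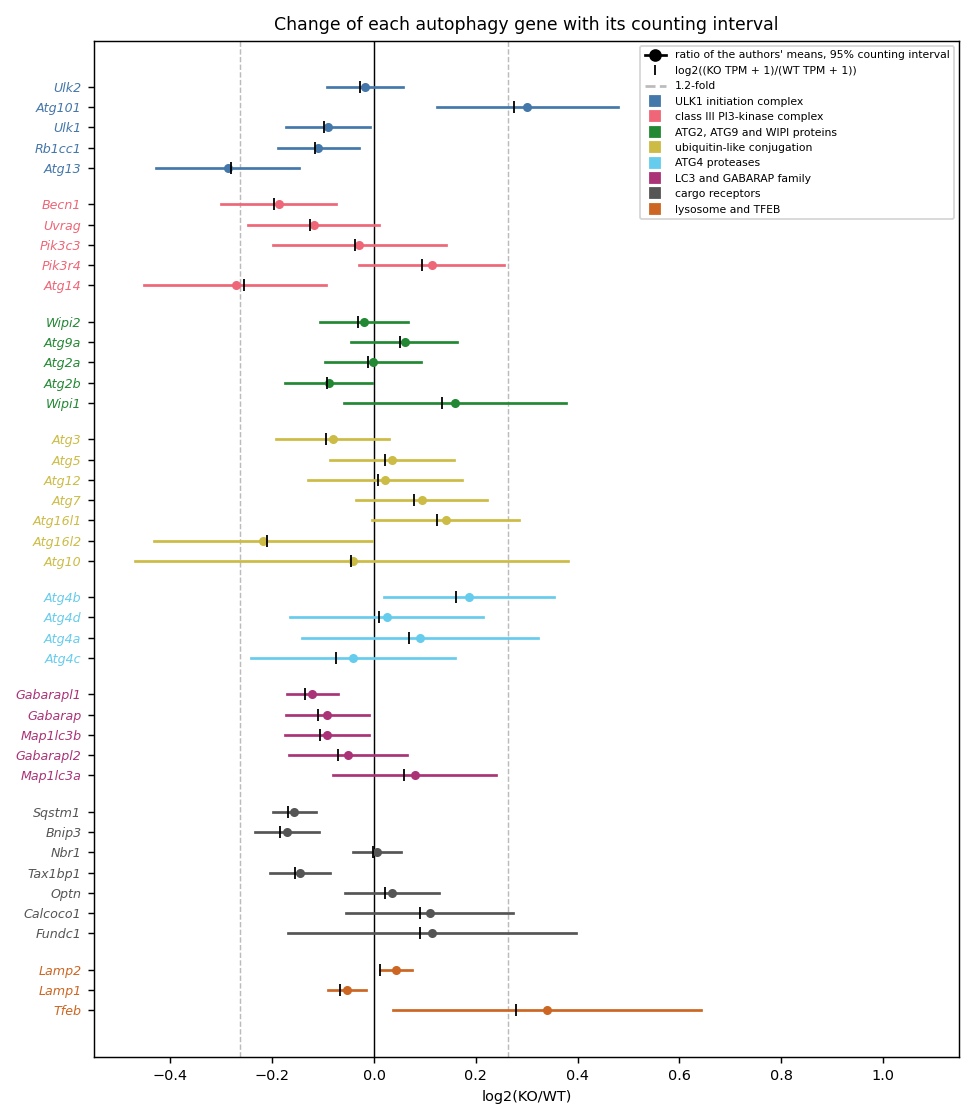
Change of each of the 41 genes on a log2 axis. Circles are the ratio of the authors' means with the 95% counting interval as a bar, black ticks are the change in TPM, and dashed lines mark 1.2-fold. Intervals lie below 0 for 14 genes and above 0 for 4, and hold 0 for 23.

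Counting intervals held 0 for most of these genes, though for a smaller share than among all genes. Of the 41 intervals, 14 lay below 0, 4 above 0 and 23 held 0. Among all 11543 genes that had an interval and a mean of 1 TPM or more, 13.4% lay below 0, 11.7% above 0 and 74.9% held 0. The 4 above 0 were those of Atg101, Atg4b, Tfeb and Lamp2. The 14 below 0 were those of Ulk1, Rb1cc1, Atg13, Becn1, Atg14, Atg2b, Atg16l2, Map1lc3b, Gabarap, Gabarapl1, Sqstm1, Tax1bp1, Bnip3 and Lamp1. The share of members below 0 was above that of all genes, and the share above 0 was not. Intervals are narrower where reads are many, and the part of read number in these shares was not tested. The widths ran from 0.06 for Lamp2 to 0.85 for Atg10.

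TFEB is known to bind promoter sequences that contain the letters CACGTG. For the 35 members with a promoter in the RefSeq table of GRCm38.p6 (41 windows of 250 bases before to 50 after a start), both strands were searched. CACGTG was found in 6 windows (14.6%), those of Atg14, Atg3, Atg5, Atg7, Bnip3 and Lamp1, against 7.15% of all 32851 windows. TCACGTGA, which contains CACGTG, was found in 1 window, that of Atg3, and in 0.974% of all windows. The shorter TCACGTG was found in 4 windows, those of Atg14, Atg3, Atg7 and Lamp1, and in 3.77% of all windows. GTAAACA, the core of the FOXO site, was found in 0 of the 41 windows and in 3.65% of all windows. A match is a description of letters only. The stretches of Lamp1 and Atg3, which hold the most copies, and of Atg14, whose change was the largest of the 6, are shown on the strand of the gene with CACGTG in capitals.
Lamp1, chr8:13159088-13159160, plus strand: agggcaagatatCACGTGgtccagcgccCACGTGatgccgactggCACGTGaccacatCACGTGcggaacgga
Atg3, chr16:45158723-45158775, plus strand: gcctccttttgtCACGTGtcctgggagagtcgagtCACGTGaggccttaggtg
Atg14, chr14:47568418-47568447, minus strand: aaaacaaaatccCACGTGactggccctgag
Lamp1 holds 4 copies and Atg3 holds 2, all before the start, while the 1 copy of Atg14 lies across it. Their changes were -0.07 for Lamp1, -0.09 for Atg3 and -0.26 for Atg14. Of the other 3 genes with CACGTG, Bnip3 changed by -0.19, Atg5 by 0.02 and Atg7 by 0.08. Whether TFEB or another factor has a part in these changes was not tested.

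Further genes of the pathway, 175 in 9 lists that hold no member, also had small changes. Of the 170 that reached a mean of 1 TPM, 1 was higher by 1.4-fold and 0 were lower by 0.6-fold. Among all genes those shares were 1.21% and 0.301%. At 1.2-fold, 5 of the 170 were higher and 2 lower, against 5.39% and 5.51% of all genes, and their median change was -0.01. The intervals of the 170 lay above 0 for 14, below 0 for 20 and held 0 for 136. Among all genes with an interval, these shares were 11.7%, 13.4% and 74.9%. The 1 gene past 1.4-fold was Ddit4, the stress-induced inhibitor of mTORC1 known as REDD1, at 21.9 TPM in KO against 12.1 in WT. Its change was 0.80 with an interval of 0.67 to 1.08. mTORC1 is the kinase complex that restrains autophagy when amino acids are plentiful, and the lowest of its list was Flcn, folliculin, a regulator of its amino acid sensing, at 15.6 TPM in KO against 19.4 in WT (-0.30). The median of these 32 genes was -0.0080, with 16 above 0 and 16 below.

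**Figure D3:**
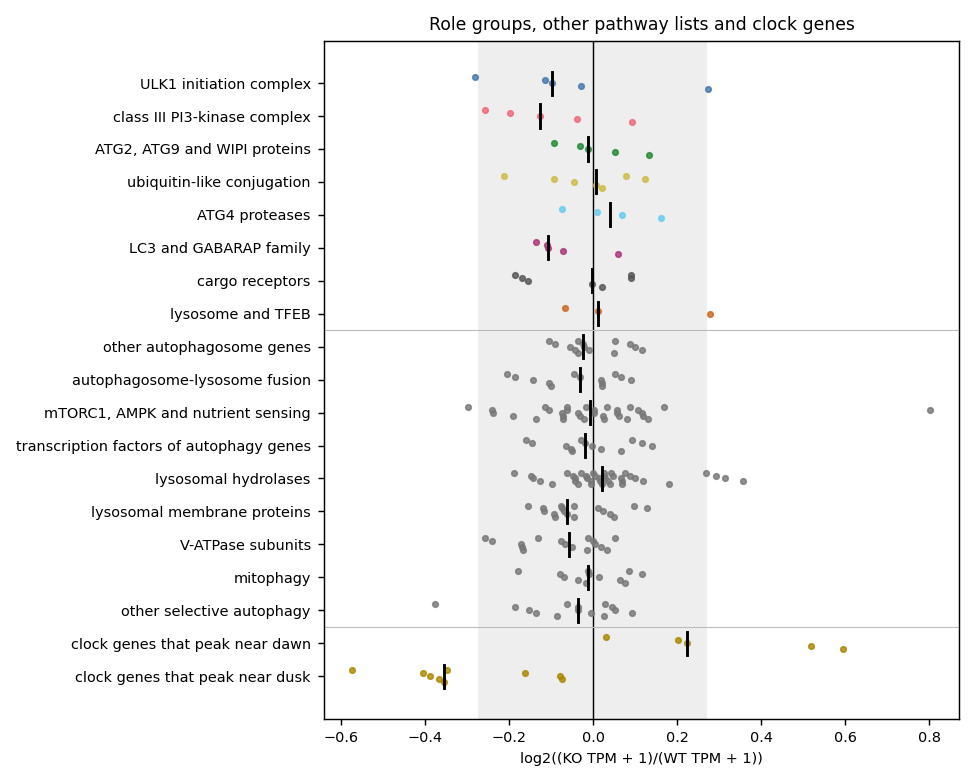
Changes of single genes (points) and their medians (black bars) for the 8 role groups, the 9 other pathway lists and the 2 clock lists, in genes whose mean reached 1 TPM. The grey band spans the 5th to the 95th percentile of all such genes, -0.27 to 0.27; medians of the role groups and pathway lists lie near 0, and those of the clock lists at 0.22 and -0.35.

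Lysosomal hydrolases had a median change of 0.02 over 39 genes. Against 5.39% of all genes, 4 of the 39 were higher by 1.2-fold. These were Sgsh at 3.42 TPM in KO against 2.45 in WT (0.36), Galns at 5.35 and 4.11 TPM (0.31), Gla at 3.52 and 2.69 TPM (0.29) and Lgmn at 53.1 and 44.0 TPM (0.27). The first 2 break down sulfated sugar chains, Gla breaks down glycolipids and Lgmn is a protease. Their intervals lie above 0, and Sgsh, Galns and Gla rest on at most 199 estimated reads in a library. Of the V-ATPase subunits, which pump protons into the lysosome, 12 of 16 lay below 0, against 53.8% of all genes. Their median was -0.06, and they ran from Atp6v1a at -0.26 to Atp6ap2 at 0.05. Lysosomal membrane proteins also had -0.06 over 17 genes, from -0.15 for the cystine transporter Ctns to 0.13 for the amino acid sensor Slc38a9.

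Among receptors outside the member list, Fam134b, which directs endoplasmic reticulum to the autophagosome, was at 83.9 TPM in KO against 109 in WT. Its change of -0.38 with an interval of -0.43 to -0.31 was the lowest of all 170 genes. The highest of that list was Pex3 at 0.09. Bnip3l, the mitochondrial receptor NIX and closest relative of Bnip3, was the lowest of the mitophagy list at 44.6 TPM in KO against 50.6 in WT (-0.18, interval -0.25 to -0.09), and Mul1 the highest at 0.12. The fusion list ran from Rab7, the GTPase of late endosomes (-0.20), to Vps39 (0.09), and the list of other autophagosome genes from Tmem41b (-0.10) to Vmp1 (0.12). Of the transcription factors, Foxo3 was lowest (-0.16) and Nr1h4, the bile acid receptor FXR, highest (0.14). Tfe3, the relative of Tfeb, was at 10.5 TPM in KO against 10.9 in WT (-0.05).

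Other transcripts that can move with autophagy genes differed between the libraries. Clock genes that peak near dusk had a median change of -0.35 over 9 genes, with 9 below 0, and those that peak near dawn 0.22 over 5 genes, with 5 above 0. Among all genes, 53.8% lay below 0 and 45.8% above. Autophagy genes of liver are known to follow the time of day and feeding, and the part of either in the values above was not tested. The Kupffer cell and macrophage markers summed to 414 TPM in KO against 373 in WT, with 9 of 11 above 0, against 45.8% of all genes. The stellate markers summed to 263 and 294 TPM (8 of 10 below 0) and the liver endothelial markers to 201 and 219.8 TPM (9 of 9 below 0), against 53.8% of all genes. Intervals held 0 for 5 of the 11, 5 of the 10 and 7 of the 9. Markers of cholangiocytes summed to 62.0 TPM in KO against 67.0 in WT, of red cells to 1413 and 1429 TPM, of lymphocytes to 3.73 and 3.56 TPM and of neutrophils to 6.98 and 6.44 TPM. Single markers within a sum differed. Dcn made 120 TPM of the stellate sum in KO and 137 in WT. Rgs5 had the lowest change of the stellate markers, -0.53, and Lrat the highest, 0.17 with an interval of 0.07 to 0.33. Of the Kupffer cell and macrophage markers, Cd68 (-0.26) and Lyz2 (-0.02) lay below 0. Of the red cell markers at 1 TPM or more, 2 lay above 0 and 3 below. Hba-a1 was at 683 TPM in KO against 600 in WT, while Hba-a2 was at 490 and 542 TPM. Hbb-bs was at 41.3 and 77.1 TPM, past 0.6-fold. Hbb-bt changed by -0.27 in TPM and by 0.04 in the ratio of the authors' means. Spp1 made 57.8 TPM of the cholangiocyte sum in KO and 61.4 in WT, while Epcam had 17 and 53 estimated reads. Posterior mean TPM stays above 0 even without reads, and by estimated reads Nkg7 (lymphocyte) had 0 in KO and 12 in WT and Retnlg (neutrophil) 0 in KO and 3 in WT. Of the neutrophil markers, 4 of 5 were in the table. A mean of 1 TPM was reached by 4 of 6 cholangiocyte, 5 of 6 red cell, 1 of 7 lymphocyte and 2 of 5 neutrophil markers. The part of other cell types in the changes, the 4 hydrolases among them, was not tested.

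**Figure D4:**
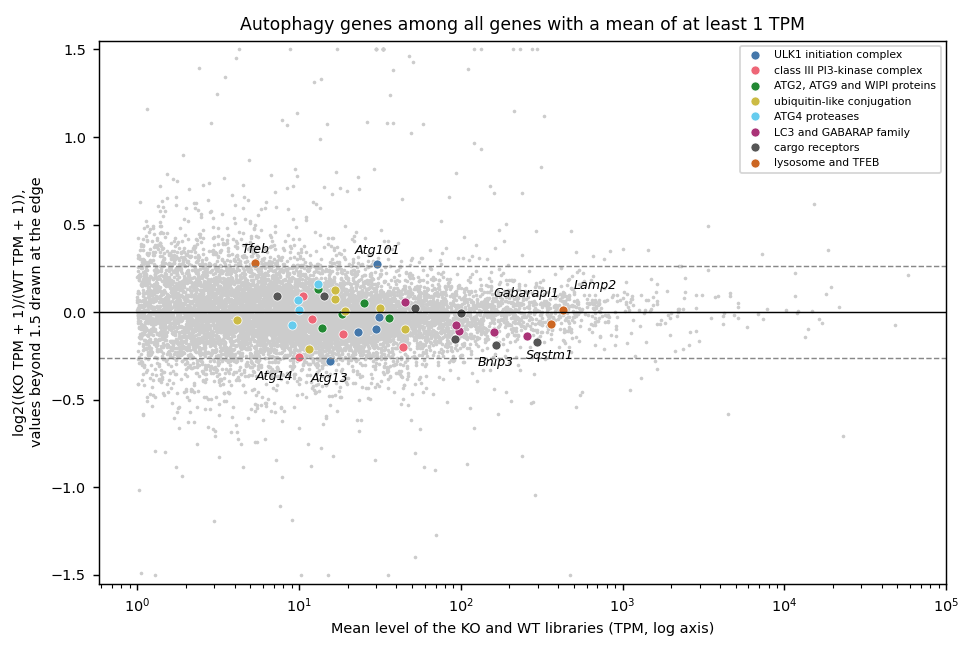
Change (log2, vertical axis) against mean level (TPM, log axis) for the 11623 genes whose mean reached 1 TPM in grey and the 41 autophagy genes coloured by role. Dashed lines mark 1.2-fold; Tfeb, Atg101 and Atg13 lie past them and the other 38 between them.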

How the data were processed

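Liver RNA was pooled by genotype and made into 1 stranded total RNA library for Pgrmc1 KO and 1 for WT. The submitters' processing notes name CASAVA 1.8.2, RSEM 1.2.09, Bowtie and the build mm10. The authors deposited gene TPM as RSEM posterior means, whose total is 1005325 for KO and 994702 for WT. For 16318 genes the authors also deposited a signal from EBSeq, which is estimated reads after division by the size factor of the library. The filter that left those genes is not given in the sources used here. That table's 4 other columns (probabilities and folds) are the authors' own comparison and were not used. Its mean columns were assigned to genotypes by the names the paper gives them. The value of 1 read was taken from the steps of these means, 1.16 in KO and 0.860 in WT. Within 0.02 of a read, 78.4% (KO) and 75.0% (WT) of means were then whole, so no count test was run. Intervals are Clopper-Pearson intervals of the KO share of a gene's estimated reads.

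Groups come from the genotype labels. Folds of 1.4 and 0.6 follow the study's thresholds, and 1.2 was set for smaller differences. Named were members past 1.2-fold, all LC3, GABARAP and receptor genes, the most and least abundant member and the highest and lowest change of each role, and the ends of each pathway list with any gene past 1.4 or 0.6. The lowest hydrolase is not reported here. Other genes with values were named after these were seen. Members and lists were chosen with earlier results of these data known. Alternatives were another pseudocount, the authors' means, centring, rescaling, other minimum levels and other thresholds. Promoters came from RefSeq, and the stretches printed join windows of 30 bases around each match, ended at the start for Lamp1. Windows shared between genes came from GENCODE transcripts of GRCm38. Fold counts and intervals were run on simulated counts that vary by counting error only, with no spread between mice. There, 451 of 11343 unchanged genes passed 1.2-fold. Intervals covered the true value for 95.5% of these genes. The simulated counts follow the assumption of the intervals, so that they cannot test it. The scripts used Python 3.11.15 with numpy 2.4.6, scipy 1.17.1, pandas 2.3.3 and matplotlib 3.10.9.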

Additional observations from a re-analysis of the deposited data

How the results depend on the processing

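No paired analysis was possible because only 1 library was made from each pool, and no replicate could be left out. The number of autophagy genes past 1.4-fold or 0.6-fold was 0 under all alternatives run, looser thresholds included. The number higher by 1.2-fold was 1 in place of 2 with a minimum mean of 10 TPM, which removes Tfeb. The number lower by 1.2-fold was 2 in place of 1, with Atg14 added, under a pseudocount of 0.1 TPM, with the authors' means and after rescaling without the 50 most abundant genes. The median change of members lay between -0.03 and -0.02 under the 6 alternatives run on it. Of 164 values of single members under 4 alternatives, 164 moved by less than the half-width of their counting interval, and 3 changed sign. These were Atg2a on centring and Nbr1 on centring and with the authors' means, all within 0.0111 of 0. Depth limits the low genes such as Atg10 and Tfeb. For abundant genes counting error is small, and the spread between mice is unknown.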

Other observations

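Members were also counted by level. Of the 11 members whose mean reached 50 TPM, 9 were lower (Bnip3, Sqstm1, Tax1bp1, Gabarapl1, Gabarap, Map1lc3b, Gabarapl2, Lamp1 and Nbr1) and 2 higher (Optn and Lamp2), with a median change of -0.11 and a range of -0.19 to 0.02. Of all 1797 genes at that level, 54.9% were lower, with a median of -0.01 and a 5th percentile of -0.23. Of the 25 members from 10 to 50 TPM, 13 were lower, with a median of -0.01, against 59.0% of all 4438 genes there, with a median of -0.03. Of the 5 from 1 to 10 TPM, 2 were lower, with a median of 0.07, against 49.2% of all 5388 genes. These levels of 10 and 50 TPM were chosen after the values were seen, and the difference between the classes was not tested. The sign of Nbr1 turned on centring and with the authors' means. All 9 lie within 1.2-fold and above the 5th percentile of genes at their level.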
